A study of Mus musculus with 4 samples.

Results

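The genes described here encode the 5 subunits of the muscle acetylcholine receptor (Chrna1, Chrnb1, Chrnd, Chrng and Chrne) and 5 proteins of the agrin and MuSK pathway that gathers the receptor at the synapse (Musk, Rapsn, Dok7, Lrp4 and Agrn). They were taken from the deposited gene table by symbol and make up 10 of its 23351 rows. Of the 10, 9 averaged 1 FPKM or more over the 4 libraries and entered the test across genes, and Chrne did not. FPKM is the authors' measure of transcript level, which scales the fragments of a gene to its length and to the depth of the library.

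The muscle receptor is a ligand-gated cation channel that opens when acetylcholine from the motor nerve binds at the faces of its α subunits. Each receptor also holds β and δ, and a γ subunit in embryonic and denervated muscle that ε replaces after innervation. Agrin, secreted by the nerve and in another splice form by muscle, binds LRP4, which activates the receptor tyrosine kinase MuSK. DOK7 binds and activates MuSK from inside the cell, and rapsyn holds the receptors together in clusters. Receptor genes are switched on when myoblasts differentiate, through E-boxes bound by myogenic factors such as MyoD and myogenin.

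Primary satellite cells, which are muscle stem cells, were taken from the extensor digitorum longus, a hindlimb muscle, of 6 to 8 week old C57BL/6 mice, and their polyadenylated RNA was sequenced. The ERβ scKO group, in which satellite cells lack estrogen receptor β, had 2 libraries, and the Control group had 2. The Cre driver, the Control genotype, the sex of each donor, whether animals were pooled, and the culture conditions are not given in the labels; the series title speaks of young female mice. Nothing says whether the 2 libraries of a group came from separate animals, so p-values measure the spread between these libraries, which may be technical.

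Esr2, the gene of ERβ, was listed at 0 in both ERβ scKO libraries, against 0.234 and 0.202 FPKM in Control replicates 1 and 2. A count of 3 fragments corresponds to 0.308 to 0.343 FPKM at this gene's length, so these values do not check the labels. From the spacing of low FPKM values, the ERβ scKO libraries held an estimated 2800000 and 2900000 fragments and the Control libraries 2600000 and 2900000. Control replicate 1 stood apart from the other 3 libraries in its balance of GC-rich and GC-poor transcripts, as given with the results it touches. The nuclear RNAs Malat1 and Neat1, which can be sensitive to RNA quality, were at 141 and 166 FPKM (Malat1) and at 129 and 143 FPKM (Neat1) in ERβ scKO. In Control they were at 63.5 and 115 FPKM (Malat1) and at 79.7 and 90.8 FPKM (Neat1), and the part of RNA quality in the results was not tested. The satellite cell marker Pax7 was at 10.4 and 10.7 FPKM in ERβ scKO against 10.7 and 10.5 FPKM in Control. Myog, Acta1 and Mylpf, genes of myotube differentiation whose values are given below, were each far above Pax7 in every library. The most abundant of the 4 myogenic identity markers were Des (desmin), at 411 and 422 FPKM in ERβ scKO against 440 and 408 FPKM in Control, and the myoblast factor Myod1, at 368 and 327 FPKM against 385 and 315 FPKM.

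Promoter sequences are shown for the receptor subunits that had one, and for the kinase Musk, to place the E-boxes named above. Of the 10 genes, 7 had promoters in RefSeq (build GRCm38.p6), in windows of 300 bases that run from 250 before to 50 after the start of the gene. Rapsn, Lrp4 and Chrnd had no entry. Sequences are written 5′ to 3′ on the gene's strand, and capitals mark E-boxes (CANNTG, which reads the same on both strands) and the ETS motif of synaptic genes (CCGGAA, searched on both strands).
Chrna1, chr2:73580289-73580588, minus strand: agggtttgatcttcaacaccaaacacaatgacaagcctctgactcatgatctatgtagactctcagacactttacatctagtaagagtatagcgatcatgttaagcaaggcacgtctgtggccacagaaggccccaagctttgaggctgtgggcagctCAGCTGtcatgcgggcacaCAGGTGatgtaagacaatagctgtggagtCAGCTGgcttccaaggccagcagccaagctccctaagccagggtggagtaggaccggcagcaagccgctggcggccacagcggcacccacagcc
Chrng, chr1:87205561-87205860, plus strand: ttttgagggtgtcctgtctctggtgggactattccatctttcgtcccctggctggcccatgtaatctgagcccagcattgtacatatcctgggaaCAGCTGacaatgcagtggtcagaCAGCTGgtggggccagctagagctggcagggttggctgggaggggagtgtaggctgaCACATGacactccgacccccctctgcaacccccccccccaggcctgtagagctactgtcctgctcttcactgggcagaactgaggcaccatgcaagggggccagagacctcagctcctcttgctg
Chrnb1, chr11:69795888-69796187, minus strand: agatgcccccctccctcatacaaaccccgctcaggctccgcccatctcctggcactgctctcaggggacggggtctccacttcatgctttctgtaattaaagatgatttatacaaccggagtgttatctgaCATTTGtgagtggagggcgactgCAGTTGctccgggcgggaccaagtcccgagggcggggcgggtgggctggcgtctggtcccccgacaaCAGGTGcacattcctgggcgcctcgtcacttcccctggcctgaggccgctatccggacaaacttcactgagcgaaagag
Musk, chr4:58285712-58286011, plus strand: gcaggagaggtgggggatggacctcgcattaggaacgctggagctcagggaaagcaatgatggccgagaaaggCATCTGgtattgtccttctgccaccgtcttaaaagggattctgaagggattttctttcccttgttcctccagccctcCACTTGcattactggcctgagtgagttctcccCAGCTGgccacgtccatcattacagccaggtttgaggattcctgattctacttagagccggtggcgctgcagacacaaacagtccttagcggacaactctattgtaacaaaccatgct
Chrne, chr11:70619145-70619444, minus strand: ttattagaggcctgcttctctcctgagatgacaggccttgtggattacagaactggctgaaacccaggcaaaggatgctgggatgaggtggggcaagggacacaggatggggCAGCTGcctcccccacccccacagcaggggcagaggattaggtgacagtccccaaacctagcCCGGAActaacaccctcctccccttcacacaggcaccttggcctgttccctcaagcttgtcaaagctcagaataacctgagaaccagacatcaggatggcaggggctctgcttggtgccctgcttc
Chrna1, Chrng, Chrnb1 and Musk each held 3 E-boxes, and 17.6% of 32851 promoter windows held 3 or more. Chrne held 1, and of the windows not printed, the pair for Agrn held 0 and 1 and the pair for Dok7 held 1 and 0. The E-box form CAGCTG occurred 2 times each in Chrna1 and Chrng, a number reached by 1.9% of windows, 1 time in Musk and Chrne, and not in Chrnb1. In Chrna1 the CAGCTG matches began 92 and 44 bases before the start, and in Chrng 155 and 132 bases before it. Chrne held the CCGGAA motif 76 bases before its start, which 14.9% of windows held at least 1 time, and the other 4 windows shown did not hold it. A match describes these letters and is not evidence of binding.

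The receptor subunits spanned a wide range of levels, and the fetal γ subunit was expressed with almost no ε. On the FPKM scale, which is per length, Chrna1, encoding the acetylcholine-binding α subunit, was the most abundant of the 10 genes. It lies on chromosome 2 (mm10, 73563281 to 73580338) and was at 543 and 576 FPKM in ERβ scKO replicates 1 and 2, against 461 and 544 FPKM in Control replicates 1 and 2. Control replicate 1 was lowest, and Control replicate 2 was level with ERβ scKO replicate 1, so the groups overlapped. The means were 560 ± 23.4 FPKM in ERβ scKO and 502 ± 59.2 FPKM in Control (SD, n = 2 libraries each, as for all means below).

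**Figure D1:**
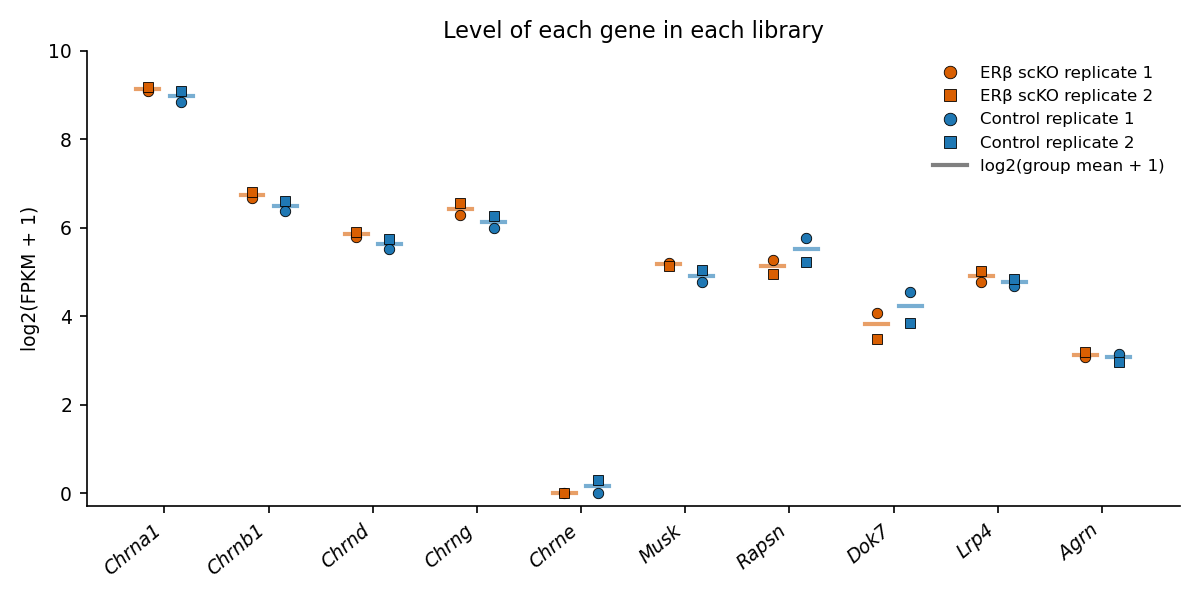
Level of each of the 10 genes, as log2(FPKM + 1), in 2 ERβ scKO libraries and 2 Control libraries, with a bar at log2(group mean + 1). Chrna1 lies far above the other subunits, Chrne lies at or near 0 in every library, and Rapsn and Dok7 have their highest value in Control replicate 1.

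Chrnb1, the β subunit, which contacts rapsyn (chromosome 11, 69784036 to 69795937), was at 101 and 112 FPKM in ERβ scKO against 81.6 and 95.7 FPKM in Control. The lower of the ERβ scKO values lay above the higher of the Control values. Chrnd, the δ subunit (chromosome 1, 87190597 to 87200070), was at 54.4 and 59.1 FPKM in ERβ scKO against 44.8 and 52.8 FPKM in Control, again without overlap. Chrng, the fetal γ subunit, lies 5740 bases downstream of Chrnd on the same strand (chromosome 1, 87205811 to 87211835). It was at 77.4 and 93.0 FPKM in ERβ scKO against 62.8 and 75.6 FPKM in Control. The lower ERβ scKO library was just above the higher Control library.

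Chrne, the adult ε subunit (chromosome 11, 70614883 to 70619194), was listed at 0 in both ERβ scKO libraries and in Control replicate 1, and at 0.222 FPKM in Control replicate 2. At its annotated length that value corresponds to about 1.0 fragment, and 3 fragments would be 0.65 to 0.725 FPKM. Chrne was thus too low to be measured at this depth in any of the libraries, and no fold change was computed. Of the summed Chrng and Chrne FPKM, Chrng made up 100% in both ERβ scKO libraries, against 100% and 99.7% in the Control libraries. The share of Chrng in the summed FPKM of the 5 subunits was 9.97% and 11.1% in ERβ scKO, against 9.67% and 9.84% in Control. The share of Chrna1 was 70.0% and 68.6% in ERβ scKO, against 70.9% and 70.8% in Control. The 5 subunits summed to 776 and 840 FPKM in ERβ scKO against 650 and 769 FPKM in Control. Fewer cells that express a gene and less RNA per cell cannot be told apart in these bulk samples.

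Among the signalling genes, Musk had its highest values in the ERβ scKO libraries, while the means of Rapsn and Dok7 were lower in ERβ scKO than in Control. Musk, the receptor tyrosine kinase of the pathway (chromosome 4, 58285962 to 58374303), was at 35.8 and 34.3 FPKM in ERβ scKO against 26.2 and 32.1 FPKM in Control. The groups did not overlap, with means of 35.0 ± 1.05 and 29.1 ± 4.14 FPKM. Lrp4, the agrin receptor on muscle (chromosome 2, 91457531 to 91513901), was at 26.2 and 31.6 FPKM in ERβ scKO against 24.5 and 27.8 FPKM in Control, and the groups overlapped. Agrn, which encodes agrin (chromosome 4, 156165290 to 156197488), was at 7.41 and 8.08 FPKM in ERβ scKO against 7.90 and 6.85 FPKM in Control. Its means, 7.74 ± 0.480 and 7.38 ± 0.744 FPKM, differed by less than either SD.

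Rapsn, the scaffold that clusters the receptor (chromosome 2, 91035627 to 91045729), was at 37.7 and 30.2 FPKM in ERβ scKO against 53.6 and 36.2 FPKM in Control. Control replicate 1 was highest and ERβ scKO replicate 2 lowest, with the other libraries close together between them. Exons of Gm13778, which is not among the genes the authors listed, overlap Rapsn on the opposite strand. Whether the authors' counting used strand is not given in the sources used here, so reads of Gm13778 may be included in the Rapsn values. Dok7, the cytoplasmic activator of MuSK (chromosome 5, 35057084 to 35087831), was at 15.9 and 10.3 FPKM in ERβ scKO against 22.4 and 13.3 FPKM in Control. ERβ scKO replicate 1 lay above Control replicate 2, so the groups overlapped. Together with Agrn these are the least deeply covered of the tested genes. Dok7 values rest on an estimated 74 to 145 fragments and Rapsn values on 128 to 203, against 137 to 162 for Agrn and 233 or more in every library for the others. For Dok7 the counting error at the lowest value is 11.6% of that value.

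Set against each other within a library, the scaffold and adaptor genes were lowest relative to their partners in ERβ scKO replicate 2 and highest in Control replicate 1. Rapsn stood at 0.373 and 0.270 times the FPKM of Chrnb1 in ERβ scKO, against 0.657 and 0.378 times in Control. Dok7 stood at 0.445 and 0.300 times the FPKM of Musk in ERβ scKO, against 0.854 and 0.414 times in Control. The first ratio did not overlap between groups, by a margin of 0.373 to 0.378, and the second did. Per 100 FPKM of Chrna1, Rapsn stood at 6.95 and 5.23 FPKM in ERβ scKO against 11.6 and 6.65 FPKM in Control, which overlapped. Rapsn and Dok7 transcripts are at 58.8% and 59.2% GC, and those of Chrnb1 and Musk at 50.9% and 50.2%. The part of GC content in these ratios was not tested. Agrn stood at 0.283 and 0.256 times the FPKM of its receptor Lrp4 in ERβ scKO, against 0.323 and 0.246 times in Control.

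By mean level the genes ran, in ERβ scKO, from Chrna1 through Chrnb1, Chrng, Chrnd, Musk, Rapsn, Lrp4 and Dok7 to Agrn, with Chrne last. The order was the same in Control except that Rapsn preceded Musk. Neighbours whose libraries overlapped were Musk and Rapsn and also Rapsn and Lrp4 in ERβ scKO, and Chrnd and Rapsn and also Musk and Lrp4 in Control. All other neighbours in the order were separated in both libraries of a group.

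The comparison of ERβ scKO with Control asked whether loss of ERβ in satellite cells was accompanied by a change of these transcripts. It used limma on log2(FPKM + 1) over 11201 genes, with Benjamini-Hochberg adjustment over all of them. None of the 9 genes passed an adjusted p of 0.05, where 4 of all genes did (0.0357%), and 0 of the 9 had an unadjusted p under 0.05, against 4.62% of all genes. The authors' deposited table gave q under 0.05 for 0 of the 9, as for 0.0% of 9426 genes they tested, and an unadjusted p under 0.05 for 0 of the 9, against 3.25%. The deposited table gave the lowest of its p-values among the 9 to Rapsn (0.0791) and Dok7 (0.0796), with log2 fold changes of −0.40 and −0.44, and a q of 0.998 to each. It marked Chrne as not tested.

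As limma's log2 ratio (ERβ scKO over Control, of FPKM + 1), the differences were 0.30 ± 0.15 for Chrng, 0.26 ± 0.12 for Chrnb1 and 0.26 ± 0.14 for Musk (SE from limma). They were 0.22 ± 0.13 for Chrnd, 0.16 ± 0.12 for Chrna1, 0.13 ± 0.15 for Lrp4 and 0.06 ± 0.17 for Agrn. For Rapsn and Dok7 they were −0.37 ± 0.22 and −0.40 ± 0.30. The adjusted p-values from limma lay between 0.837 and 0.944. In all, 7 of the 9 had a higher mean log2 value in ERβ scKO, against 49.3% of all genes, and their median was 0.16, against −0.004 for all genes. The ERβ scKO libraries both exceeded both Control libraries in 4 of the 9 (Chrnb1, Chrnd, Chrng and Musk), against 18.3% of all genes, and lay below both in 0 of the 9, against 18.3%. With 2 libraries a group an exact two-sided permutation test cannot go below p = 0.333.

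**Figure D2:**
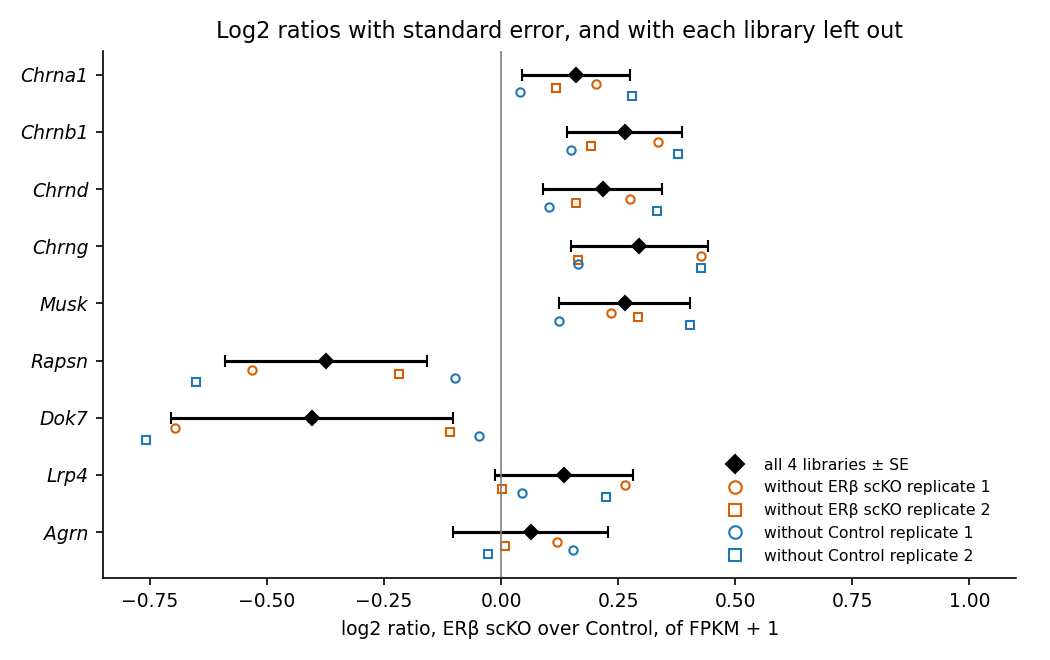
Log2 ratio (ERβ scKO over Control, of FPKM + 1) of the 9 tested genes, with limma's standard error, and the same ratio with each of the 4 libraries left out. The 4 tested receptor subunits and Musk stay above 0 throughout; Rapsn and Dok7 stay below 0 and lie nearest to it, at −0.10 and −0.05, without Control replicate 1.

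How far each ratio depended on 1 library differed between the genes. Without Control replicate 1, Rapsn and Dok7 stood at −0.10 and −0.05, and without ERβ scKO replicate 2 at −0.22 and −0.11. Without Control replicate 2 they stood at −0.65 and −0.76, and without ERβ scKO replicate 1 at −0.53 and −0.70. For Chrna1, Chrnb1, Chrnd, Chrng and Musk, the ratios without Control replicate 1 were 0.04, 0.15, 0.10, 0.16 and 0.12, all still above 0. The ratio of Chrng was 0.16 also when ERβ scKO replicate 2 was left out. The ratio of Lrp4 was 0.002 with ERβ scKO replicate 2 left out and 0.26 with ERβ scKO replicate 1 left out, so it was near 0 without 1 of the libraries.

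Control replicate 1 lay at one end of the range for most of these genes, as it did for most of all genes tested. It was the lowest of the 4 libraries for 6 of the 9 genes (the 4 receptor subunits, Musk and Lrp4), against 33.0% of all genes. It was the highest for 2 of the 9 (Rapsn and Dok7), against 34.3% of all genes. Chrnb1, Chrnd and Chrng shared an order in which, from low to high, replicates 1 and 2 of Control came before replicates 1 and 2 of ERβ scKO. That order, looked up after the values were seen, held for 3 of the 9 and for 6.97% of all genes.

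Genes of myotube differentiation, which switch on together with receptor genes, also had low values in Control replicate 1. That library was the lowest for 8 of the 9 measured, 8 of the 9 had a higher mean in ERβ scKO, and their median log2 ratio was 0.31; 0 passed limma's adjusted p or the authors' q. In 3 of them (Myog, Acta1 and Tmem8c, which encodes the fusion protein myomaker) the groups did not overlap, with ERβ scKO higher, against 18.3% of all genes. Myog, the myogenic factor that acts on receptor promoters, was at 623 and 660 FPKM in ERβ scKO against 494 and 621 FPKM in Control. Mylpf, a fast myosin light chain, was at 1979 and 2399 FPKM in ERβ scKO against 1334 and 2126 FPKM in Control. Acta1, skeletal muscle actin, was at 809 and 828 FPKM in ERβ scKO against 735 and 734 FPKM in Control. The summed FPKM of the list was 4655 and 5420 in ERβ scKO, against 3414 and 4880 in Control. The part of differentiation in the receptor values was not tested.

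**Figure D3:**
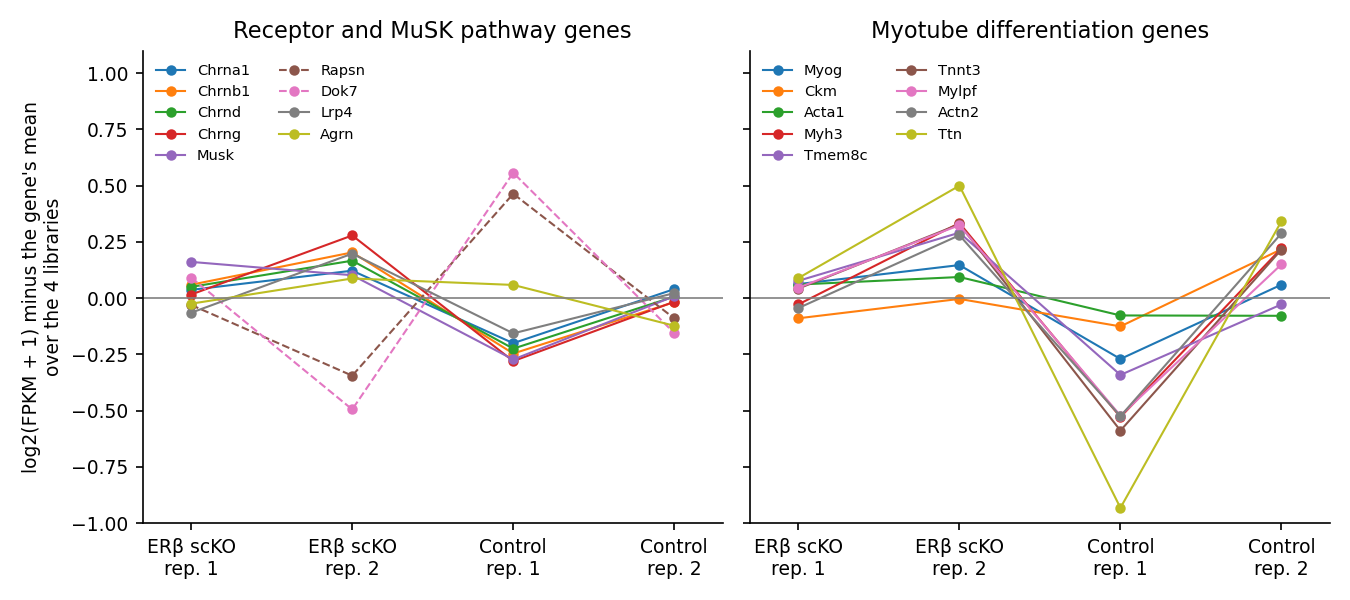
Deviation of each library's log2(FPKM + 1) from the gene's mean over the 4 libraries, for the 9 tested receptor and pathway genes (left) and 9 genes of myotube differentiation (right); lines join the values of 1 gene. In Control replicate 1 the receptor subunits, Musk and Lrp4 lie low, as all of the differentiation genes do, while Rapsn and Dok7 (dashed) lie high.

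The log2 ratios of all genes varied with the GC content of their transcripts. Among 5 groups of all genes by GC content, the median log2 ratio was 0.11 in the GC-poorest and −0.13 in the GC-richest. Rapsn, Dok7 and Agrn, at 58.8%, 59.2% and 58.8% GC, belong to the GC-richest group. Between the replicate 1 libraries the median of that group was −0.25, where Rapsn stood at −0.49, Dok7 at −0.47 and Agrn at −0.08. Between the replicate 2 libraries it was 0.0008, where Rapsn stood at −0.25, Dok7 at −0.34 and Agrn at 0.21. With each library's trend on GC content subtracted before the fit, an alternative added after the data were seen, Rapsn stood at −0.25 ± 0.12 and Dok7 at −0.27 ± 0.20. Agrn stood at 0.19 ± 0.16 and Chrng at 0.32 ± 0.15 in the same fit, with limma adjusted p-values of 0.712 to 0.789 for these 4 genes.

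**Figure D4:**
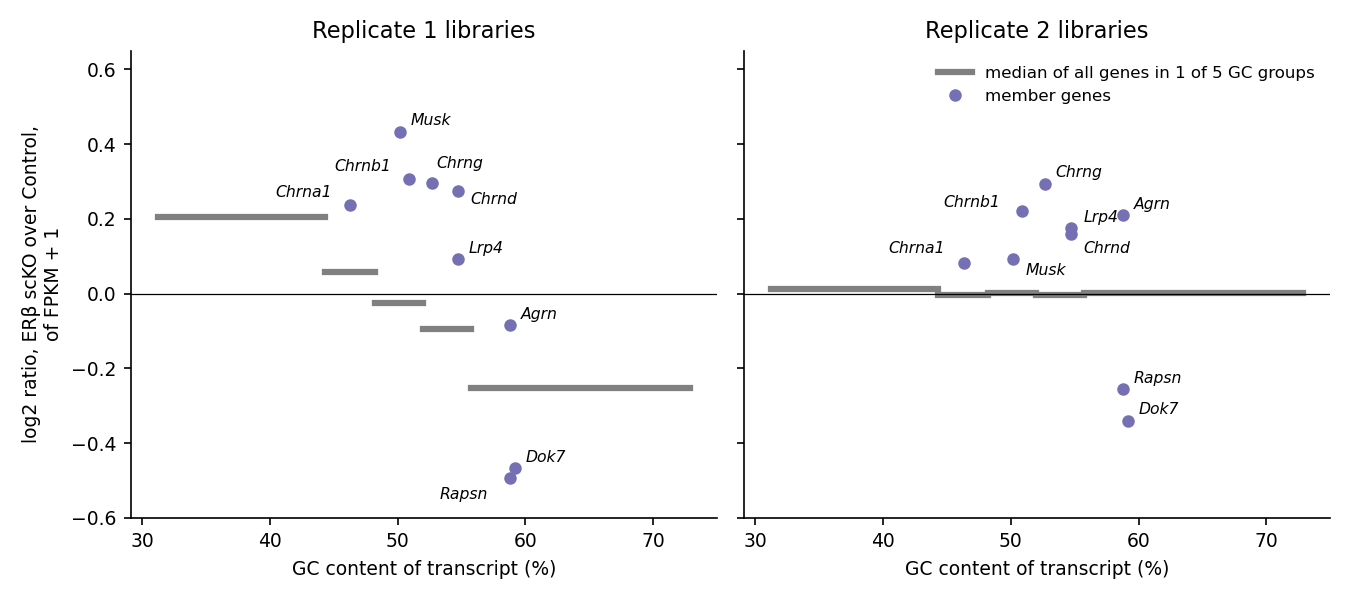
Log2 ratio (ERβ scKO over Control, of FPKM + 1) against the GC content of the transcript, between the replicate 1 libraries (left) and between the replicate 2 libraries (right). Points are the 9 tested genes and grey lines the median of all genes in each of 5 groups by GC content; the medians slope down on the left and lie near 0 on the right, where Rapsn and Dok7 are at −0.25 and −0.34.

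Other genes of the neuromuscular synapse were read from the same fit, and none passed limma's adjusted p or the authors' q. A list of kinases, adaptors and cytoskeletal partners of MuSK, rapsyn or the receptor held 20 genes. Of these, 10 had higher and 10 lower means in ERβ scKO, with a median log2 ratio of 0.01. The most abundant in the list were Hsp90b1 and Rhoa. Hsp90b1 was at 596 and 555 FPKM in ERβ scKO against 469 and 576 FPKM in Control. It encodes a chaperone of the endoplasmic reticulum, not a kinase, adaptor or cytoskeletal protein, but is counted in the 20 genes and the 10 higher. Whether that protein binds MuSK, rapsyn or the receptor was not tested. Rhoa, a small GTPase, was at 257 and 265 FPKM in ERβ scKO against 285 and 287 FPKM in Control. Of 9 measured genes of the synaptic matrix and its cytoskeleton 3 had higher and 6 lower means, with a median of −0.17. Dag1, which encodes dystroglycan, was at 39.8 and 40.7 FPKM in ERβ scKO against 38.8 and 39.4 FPKM in Control. Hspg2, which encodes perlecan, was at 28.4 and 25.7 FPKM in ERβ scKO against 51.0 and 27.2 FPKM in Control, so its difference also lay in Control replicate 1. Lama5, a laminin gene, was at 7.53 and 6.80 FPKM in ERβ scKO against 11.9 and 9.20 FPKM in Control. Of the 9, Lama5 alone lay below both Control libraries and Dag1 alone above both, against 18.3% of all genes each way. Ache, the esterase that ends the signal of acetylcholine, was at 0.17 and 0.63 FPKM in ERβ scKO against 0.18 and 0.47 FPKM in Control, below the filter on low values.

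Regulators of synaptic transcription showed no shared direction. Of 6 measured neuregulin receptors and ETS factors, 2 had higher and 4 lower means, with a median log2 ratio of −0.06. Gabpa, an ETS factor that acts on synaptic promoters, was at 26.0 and 25.3 FPKM in ERβ scKO against 20.8 and 27.0 FPKM in Control, and Etv4, of the same family, at 18.4 and 20.3 FPKM against 22.4 and 22.6 FPKM. Of 7 measured myogenic factors, their partners and activity-dependent regulators, 2 had higher and 5 lower means, with a median of −0.04. Of 7 measured genes of receptor assembly and glycosylation, 3 had higher and 4 lower means, with a median of −0.003. Canx, the chaperone calnexin, was at 237 and 242 FPKM in ERβ scKO against 206 and 227 FPKM in Control, and Rer1, a sorting receptor for unassembled subunits, at 91.7 and 90.0 FPKM against 100.0 and 83.2 FPKM.

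Motor neurons also make agrin, and Chat and Slc18a3, which define cholinergic neurons, were listed at 0 in every library. Of 7 motor neuron markers, 5 were listed at 0 in every library and 1 passed the filter, Tubb3, at 17.8 and 17.1 FPKM in ERβ scKO against 26.2 and 16.1 FPKM in Control. Isl1, the next highest, was listed at 0 in 3 of the 4 libraries. Of 11 nicotinic subunits of neurons and other cells, 0 reached 1 FPKM in any library, and 4 were listed at 0 in all; Chrna7 and Chrna5 were the highest, Chrna7 at 0.352 and 0.990 FPKM in ERβ scKO against 0.382 and 0.988 FPKM in Control. The Schwann cell markers S100b and Sox10 were below 1 FPKM in every library. The 6 fibroblast markers, led by Col3a1 and Col1a1, summed to 70.5 and 63.1 FPKM in ERβ scKO against 105 and 71.1 FPKM in Control, a sum carried mostly by Col3a1. Col3a1 was at 63.4 and 61.4 FPKM in ERβ scKO against 81.0 and 69.1 FPKM in Control. Both its ERβ scKO libraries lay below both Control libraries, as for 18.3% of all genes. Of the 4 markers that passed the filter, 0 had a higher mean log2 value in ERβ scKO, against 49.3% of all genes. Col1a1 was at 2.09 and 1.40 FPKM in ERβ scKO against 18.7 and 0.909 FPKM in Control, so that Control replicate 1 stood far above the other libraries. Pdgfra was at 2.64 and 0.149 FPKM in ERβ scKO against 3.17 and 0.446 FPKM in Control, and Dcn at 2.36 and 0.195 FPKM against 1.96 and 0.584 FPKM, both higher in the replicate 1 library of each group. Dpt and Lum were listed at 0 in every library, and the part of fibroblasts in the results was not tested. Endothelial markers, led by Pecam1 and Cdh5, summed to 3.26 and 2.03 FPKM in ERβ scKO against 2.05 and 1.12 FPKM in Control, and leukocyte markers, led by Cd68 and Csf1r, to 2.89 and 0.757 FPKM against 1.31 and 1.01 FPKM.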

How the data were processed

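Stranded libraries of polyadenylated RNA were made from 4 samples, per the labels' protocols, and the submitters' processing notes name TopHat, Cufflinks and the build mm10; versions, annotation and use of strand are not given in the sources used here. The deposited gene table holds FPKM per gene and library and the authors' group means, and, from the authors' own test, a log2 fold change, a test statistic (a score), a p-value and a q-value. The series text speaks of triplicates; 2 libraries per group were analysed here. Genes averaging 1 FPKM or more entered limma (version 3.58.1, R 4.3.3), fitted to log2(FPKM + 1) with a variance trend and no covariate. The pseudocount understates changes of low genes. Starts of the deposited loci were moved by 1 base to count from 1. Transcript length, GC content and exons came from GENCODE M21, which matched 92.6% of symbols (GC content for 93.9% of tested genes); a gene here took the coding transcript with ends nearest to its locus. Depth was estimated from the spacing of low FPKM values of genes with 1 annotated transcript longer than 1500 bases, and intervals from it cover counting error only. The fit was tested on simulated data, which checks how it is computed and not whether its assumptions hold for these libraries. The 10 genes and all lists were chosen with earlier results of these data known. All 10 are named; from other lists the 2 most abundant genes and any gene past a threshold were to be named, and further genes were named with their values known. Alternatives were pseudocounts of 0.1 and 5, a filter at 5 FPKM or none, other scalings and variance models, each library left out, replicate number as a block, and, added later, a GC correction.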

Additional observations from a re-analysis of the deposited data

How the results depend on the processing

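Limma called 0 of the 9 tested genes in every alternative fitted, also with the replicate block. Without Control replicate 2, 7 of the 9 had an unadjusted p under 0.05, against 20.3% of all genes. The log2 ratios of Chrna1, Chrnb1, Chrnd, Chrng, Musk, Rapsn, Dok7 and Lrp4 kept their direction, Lrp4 barely, in all 14 alternative fits and between the libraries of each replicate number. Agrn lay between −0.027 (without Control replicate 2) and 0.154 (without Control replicate 1) with 1 library left out, and was at −0.083 between the replicate 1 libraries alone. The median log2 ratio of the 9, 0.16, lay between 0.102 and 0.28 with 1 library left out and was 0.188 with the GC trend subtracted. Over all genes limma called 4, 2 without a filter on low values, and 7 to 11 with 1 library left out, where the remaining library of a group is assumed to vary like the others; the cause was not tested. The authors' own p at 0.05 without adjustment gives 306 genes in place of 0 and 0 of these 9. The labels give both groups the numbers 305 and 332 without saying what they mark. The difference between replicates 1 and 2 in ERβ scKO correlated at 0.211 over genes with that in Control. With 2 numbers this does not establish pairs. With the replicate block limma called 6 genes over all, and Chrnb1, Chrng, Rapsn and Dok7 had an unadjusted p under 0.05 (4 of the 9 in place of 0, adjusted p 0.579 each, against 8.45% of all genes). Estimated depth limits Chrne, and Dok7 most among the tested genes. FPKM compared between genes also depends on transcript lengths in the authors' annotation, not given in the sources used here.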
